A study of Mus musculus with 8 samples.

Results

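Transcripts of 10 genes of the Notch pathway were followed in rib chondrocytes of mouse embryos: the receptors Notch1, Notch2 and Notch3, the ligands Jag1 and Dll1, the receptor-modifying enzyme Lfng, and the targets Hes1, Hey1, Heyl and Nrarp. Every probe set (a group of short oligonucleotides read as 1 value for a transcript) that the platform annotation assigns to 1 of these symbols alone was taken, which gave 19 of 45037. Of the 19, 17 had a mean signal above 105.9, the median of all probe sets, and were tested, with at least 1 for each of the 10 genes. The remaining pair, 1 of Heyl and 1 of Lfng, was too dim.

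The arrays were hybridised with total RNA of primary chondrocytes, the cells of cartilage, released by collagenase and trypsin from FVB rib cages at E18.5, late in gestation. The labels describe 4 litters, each divided by genotype into a wild-type control pool and a Hoxd4-transgenic pool, so that 8 arrays form 4 pairs. Arrays with the same replicate number in their titles were taken as the same litter. Which promoter drives the transgene, and how many embryos or founder lines went into a pool, is not given in the sources used here. With this design the question is which transcripts differ when Hoxd4, a homeobox transcription factor, is overexpressed.

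Notch receptors are cut after a ligand on a neighbouring cell binds them, and the freed intracellular part joins the DNA-binding protein RBPJ and a Mastermind coactivator to switch on genes of the Hes and Hey families. In the growth plate, Notch signalling is known to restrain the early chondrocyte programme and to favour maturation. In blood vessels, Notch1 acts mainly in the lining endothelium and Notch3 in the surrounding mural cells.

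Median signals were alike between arrays (100.5 to 115.1), and rank correlations between arrays ranged from 0.932 to 0.942. All 10 cartilage markers looked at, Col2a1 and Acan among them, were bright, with a summed signal of 276194 to 301388 in controls and 285001 to 312987 in transgenics. The brighter of a pair of probe sets annotated to Hoxd4 and its neighbour Hoxd3 together went with the label in 3 of 4 litters. In litter 4 it went against it, since the control array read 256 and the transgenic one 13.0, so values without litter 4 are given below for the 7 probe sets with the largest estimates. Sex-linked transcripts also moved with the label. The brightest Xist probe set read 5778, 9945, 13760 and 8098 in the controls of litters 1 to 4 and 79.8, 3266, 47.2 and 8209 in the transgenics, and the 3 Y-linked genes tested were higher in the transgenic array of all 4 litters. The sex of the embryos is not given in the sources used here, and the part of these differences in the results below was tested only by adding the Xist level as a covariate.

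No Notch probe set passed the test. On log2(signal + 32), limma gave 0 of 17 past an adjusted p of 0.05, as for 0.0% of all 22518 probe sets tested, and the lowest adjusted p among the 17 was 0.9997. An unadjusted p under 0.05 was found for 2 of 17, both lower in transgenics (1 probe set each of Nrarp and Notch3), where 3.29% of all tested probe sets had one. That Nrarp probe set passed the filter on signal only through its controls. With the litter as a block the count was 3 of 17, against 5.54% of all. The one added was Notch3 1421964_at, higher in transgenics, which passed the filter only through its transgenic mean. Estimates were higher for 9 and lower for 8 probe sets, with a median log2 fold change of 0.02 against 0.0029 over all tested probe sets. The median size regardless of sign was 0.12, against 0.078 over all. For 15 of 17, the 95% interval lay wholly within a 2-fold change, as for 22226 of all 22518. Larger differences of these 15 on this scale are outside the interval. The constant of 32 shrinks fold changes of dim probe sets.

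**Figure D1:**
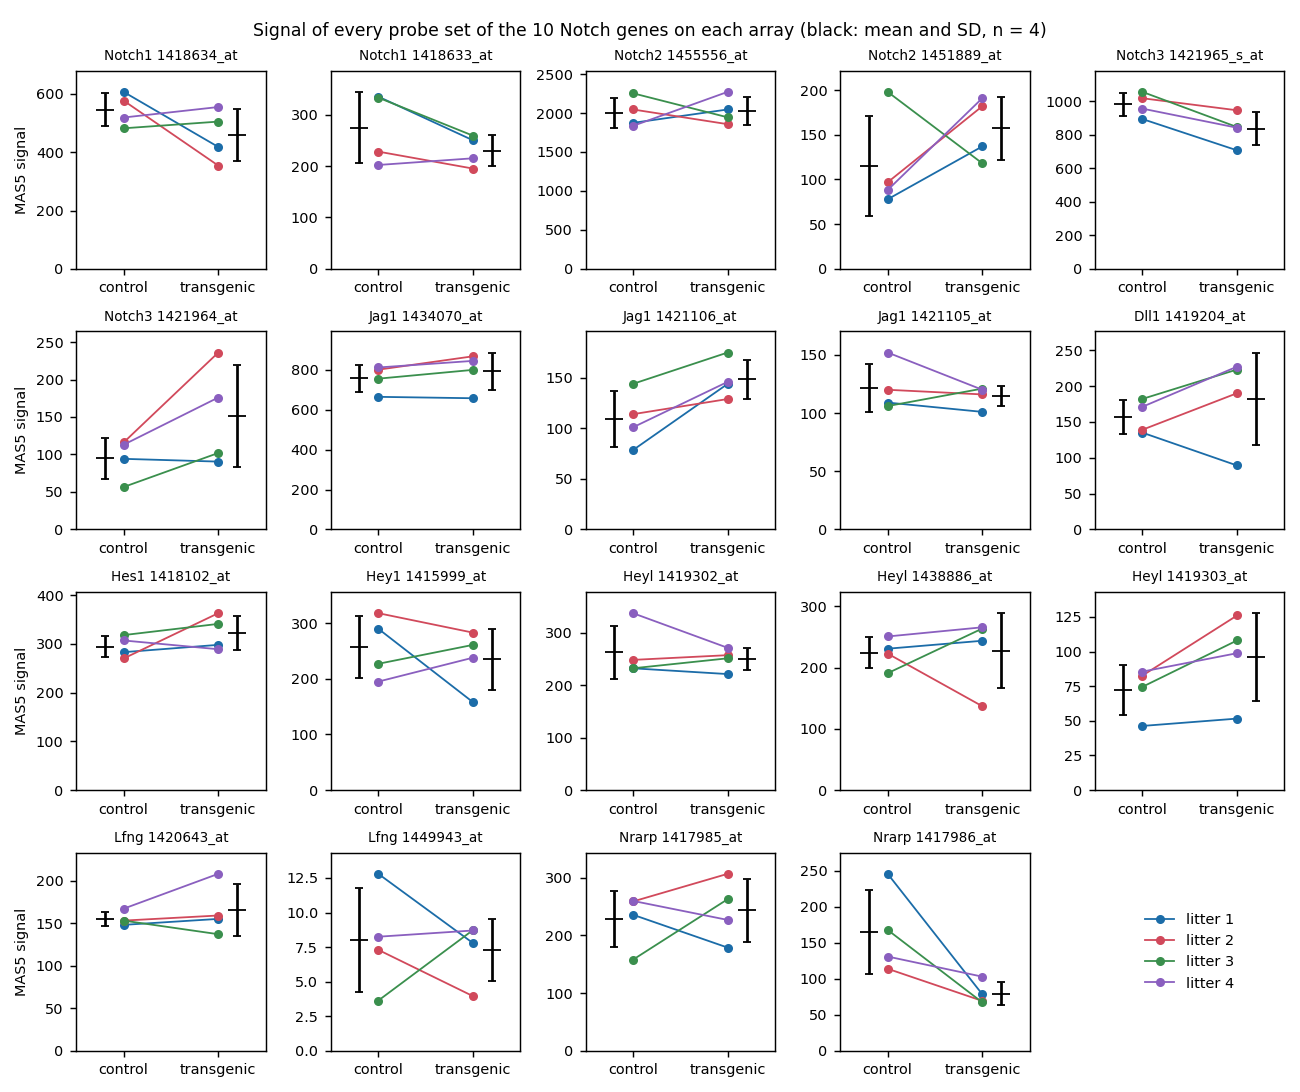
MAS5 signal (linear scale, arbitrary units) of each of the 19 probe sets on the 8 arrays. Lines join the control and transgenic pool of a litter, and black bars give the mean and SD of 4 arrays. Apart from Nrarp 1417986_at, the control and transgenic signals overlap in every panel.

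Among the receptors, Notch1 had the lower estimates on both of its probe sets, Notch2 had an estimate near 0 on its brighter one, and the 2 probe sets of Notch3 went opposite ways. Notch1 1418634_at read 607, 577, 482 and 519 in the controls of litters 1 to 4 and 418, 354, 505 and 555 in the transgenics. The transgenic signal was thus lower in litters 1 and 2 and slightly higher in litters 3 and 4. The means were 546 ± 56.5 and 458 ± 89.5 (SD, n = 4), and the log2 fold change was -0.25 (95% interval -0.54 to 0.04). It lay between -0.35 and -0.14 when single arrays were left out and was -0.37 without litter 4. The dimmer Notch1 1418633_at read 335, 228, 333 and 202 in controls and 250, 195, 259 and 215 in transgenics, for a log2 fold change of -0.21 (95% interval -0.57 to 0.16). It lay between -0.33 (without the control of litter 4) and -0.11 (without the control of litter 1 or of litter 3), and was -0.30 without litter 4 and -0.36 with the Xist level as a covariate. Litters 1 and 3 were the high ones in both genotypes, and litter accounted for 70.6% of the variation of this probe set.

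Notch2 1455556_at read 1835 to 2254 in controls and 1857 to 2272 in transgenics. The estimate of 0.02 on the log2 scale (95% interval -0.17 to 0.21) was among the most tightly bounded of the 17. Notch2 1451889_at, a dimmer probe set, read 77.8 to 198 in controls and 118 to 191 in transgenics (log2 fold change 0.41, 95% interval -0.11 to 0.93). It was higher in the transgenic array of litters 1, 2 and 4, and lower in litter 3, whose control, at 198, was the highest of the 8 arrays. The estimate was 0.25 without litter 4 and 0.65 without that control array. With the Xist level as a covariate this estimate was 0.76, and that of the other dim receptor probe set, Notch3 1421964_at, went from 0.48 to 0.95.

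Notch3 1421965_s_at read 894, 1018, 1056 and 956 in controls and 707, 946, 846 and 842 in transgenics. Each transgenic array was below the control of its own litter, although the group ranges overlapped between 894 and 946. Means were 981 ± 71.2 and 835 ± 98.1 (SD, n = 4), a log2 fold change of -0.23 (95% interval -0.44 to -0.01), with an adjusted p of 0.9997 in limma and an exact permutation p of 0.057. The suffix of this probe set marks oligonucleotides shared by several transcripts. Its estimate was -0.24 without litter 4 and -0.11 with the Xist level as a covariate. Notch3 1421964_at read 94.2, 116, 56.6 and 113 in controls and 90.5, 236, 102 and 176 in transgenics. Its control mean of 94.9 lay below the filter of 105.9, so it was tested only through its transgenic mean of 151. It was higher in the transgenic arrays of litters 2, 3 and 4 (log2 fold change 0.48, 95% interval -0.09 to 1.06), with values from 0.28 without the transgenic array of litter 2 to 0.65 without that of litter 1, and 0.47 without litter 4. Its unadjusted p was under 0.05 in the fit blocked by litter, with the Xist level as a covariate, and without litter 1 or its transgenic array. The difference between the 2 estimates for Notch3 was 0.71 (exact permutation p = 0.029, the smallest that 70 assignments of the labels allow, 0.23 after adjustment over the 8 within-gene pairs of tested probe sets). When labels were exchanged only within litters, the exact permutation p of this difference was 0.125, the smallest that 16 assignments allow.

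**Figure D2:**
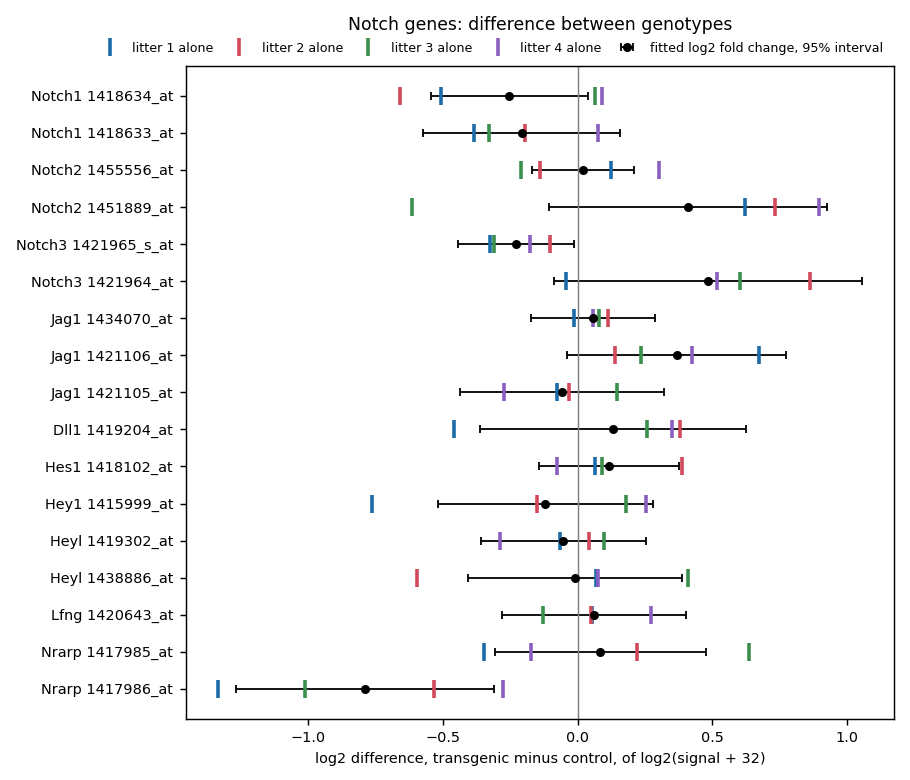
Log2 fold change of the 17 tested probe sets, transgenic minus control, with 95% intervals (black), and the difference within each litter (coloured marks). The 4 litter marks lie on 1 side of 0 for Notch3 1421965_s_at, Jag1 1421106_at and Nrarp 1417986_at.

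Of the ligands, which sit in the membrane of the signal-sending cell, Jag1 had an estimate near 0 on its brightest probe set and Dll1 varied widely. Jag1 1434070_at read 664, 800, 755 and 811 in controls and 657, 867, 799 and 844 in transgenics (log2 fold change 0.06, 95% interval -0.17 to 0.29). Litter 1 was the lowest in both genotypes, and litter accounted for 92.4% of the variation, the highest share among the 17 probe sets. Jag1 1421106_at read 78.5, 114, 144 and 101 in controls and 144, 129, 175 and 146 in transgenics. The transgenic array was above its control in 4 of 4 litters, with a log2 fold change of 0.37 (95% interval -0.04 to 0.77, exact permutation p = 0.057) and 0.35 without litter 4. Jag1 1421105_at, similar in brightness to the last, read 106 to 152 in controls and 101 to 121 in transgenics, for a log2 fold change of -0.06 (95% interval -0.44 to 0.32). The higher value of Jag1 was thus seen on 1 of its 3 probe sets.

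Dll1 1419204_at read 135, 139, 182 and 171 in controls and 89.2, 190, 223 and 227 in transgenics. Litter 1 ran lower and the other 3 litters higher in the transgenic array. The log2 fold change was 0.13 (95% interval -0.36 to 0.62), and 0.38 without the transgenic array of litter 1, the lowest of the 8. It was 0.020 without the transgenic array of litter 4, 0.027 without that of litter 3, and 0.41 with the Xist level as a covariate.

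Lfng encodes lunatic fringe, a Golgi enzyme that extends sugars on Notch receptors and so changes which ligands they answer to. Lfng 1420643_at read 148 to 167 in controls and 137 to 208 in transgenics (log2 fold change 0.06, 95% interval -0.28 to 0.40), and its highest value was that of litter 4 in each genotype. The other, 1449943_at, stayed between 3.63 and 12.8 on all arrays (log2 difference -0.02, exact permutation p = 0.94), well below the constant added.

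For Notch targets the DNA near the start of transcription is shown because RBPJ and the Hes and Hey repressors act through short sites there. Of the 10 genes, 7 have entries among the RefSeq promoters of GRCm38.p6 (8 windows of 300 bases, from 250 before to 50 after the start), namely Notch1, Notch2, Notch3, Jag1, Dll1, Lfng and Nrarp. Hes1, Hey1 and Heyl have none and are only named. The RBPJ core TGGGAA, searched on both strands, was in the Lfng window alone, where it occurs at 2 places, and 25.6% of all 32851 windows hold it. The E-box CACGTG, a sequence that Hey proteins can bind, was in the windows of Lfng and Nrarp, against 7.15% of all windows. In Lfng 1 E-box and 1 RBPJ core share 2 bases. Capitals mark both motifs in the windows of Lfng (chr5:140607091-140607390, plus strand) and Nrarp (chr2:25180508-25180807, plus strand), the genes with any match.
Lfng: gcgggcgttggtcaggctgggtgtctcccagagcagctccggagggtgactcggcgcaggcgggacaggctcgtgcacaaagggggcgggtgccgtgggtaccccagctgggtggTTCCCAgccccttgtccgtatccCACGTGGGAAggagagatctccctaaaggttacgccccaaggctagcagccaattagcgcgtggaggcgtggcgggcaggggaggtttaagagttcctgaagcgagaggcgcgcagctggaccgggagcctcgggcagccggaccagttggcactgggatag
Nrarp: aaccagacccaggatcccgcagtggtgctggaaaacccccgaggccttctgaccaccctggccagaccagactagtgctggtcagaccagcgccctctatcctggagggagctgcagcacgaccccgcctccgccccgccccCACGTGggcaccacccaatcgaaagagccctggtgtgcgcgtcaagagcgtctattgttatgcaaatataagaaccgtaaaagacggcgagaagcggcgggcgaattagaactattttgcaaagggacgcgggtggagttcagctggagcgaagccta
A match of letters describes the window and does not show binding.

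Hes1, Hey1 and Heyl encode basic helix-loop-helix repressors that stand directly downstream of activated Notch. For all 3 the 95% interval of each tested probe set included 0. Hes1 1418102_at read 283, 270, 318 and 307 in controls and 298, 363, 341 and 289 in transgenics, higher in litters 1, 2 and 3 and lower in litter 4. Group means were 294 ± 22.0 and 323 ± 34.9 (SD, n = 4), and the estimate on the log2 scale came to 0.12 (95% interval -0.14 to 0.38). It was 0.064 without the transgenic array of litter 2, the highest of the 8, and 0.027 without litter 2. Hey1 1415999_at read 290, 318, 227 and 195 in controls and 158, 283, 261 and 238 in transgenics. Litters 1 and 2 were lower and litters 3 and 4 higher in the transgenic array, and the log2 fold change of -0.12 (95% interval -0.52 to 0.28) became 0.04 without the transgenic array of litter 1.

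Heyl 1419302_at read 232 to 337 in controls and 221 to 271 in transgenics, for a log2 fold change of -0.05 (95% interval -0.36 to 0.25). Heyl 1438886_at read 191 to 251 in controls, and 244, 137, 264 and 266 in transgenics. Its estimate of -0.01 (95% interval -0.41 to 0.39) was 0.18 without the low transgenic array of litter 2. The dim Heyl 1419303_at was higher in the transgenic array of 4 of 4 litters, at 46.3, 82.6, 74.5 and 85.5 against 51.6, 126, 108 and 98.8 (log2 difference 0.28, exact permutation p = 0.31). Its exact permutation p was 0.125, the smallest that 16 assignments allow, when labels were exchanged only within litters. Litter 1 was the lowest in both genotypes, as for the brightest Jag1 probe set.

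Nrarp, a small ankyrin-repeat protein that Notch induces and that restrains Notch in turn, had the largest difference of the 17 probe sets, on 1 of its 2. Nrarp 1417986_at read 246, 114, 168 and 131 in controls and 78.4, 69.3, 67.2 and 103 in transgenics. The highest transgenic array lay below the lowest control, and each transgenic array was below the control of its own litter. It was the only Notch probe set whose groups did not overlap (1 of 17, against 2.27% of all tested). Means were 165 ± 58.6 and 79.5 ± 16.3 (SD, n = 4), with a log2 fold change of -0.79 (95% interval -1.27 to -0.31). The transgenic mean lay below the filter of 105.9, so this probe set was among those tested only through its control signal. The adjusted p in limma was 0.9997 without and 0.73 with the litter as a block, and the exact permutation p of 0.029 is the smallest that 70 assignments of the labels over all arrays allow. With labels exchanged only within litters, 16 assignments remain, and the exact permutation p was 0.125, the smallest they allow. The same held for Notch3 1421965_s_at, Jag1 1421106_at and the dim Heyl 1419303_at. The pairs of litters thus cannot reach 0.05 by permutation. The estimate lay between -0.91 and -0.61 when single arrays were left out, was -0.96 without litter 4 and -0.69 with the Xist level as a covariate.

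Nrarp 1417985_at, the brighter of the pair, read 236, 259, 158 and 260 in controls and 179, 307, 263 and 227 in transgenics. Litters 1 and 4 were lower and litters 2 and 3 higher in the transgenic array (log2 fold change 0.08, 95% interval -0.31 to 0.48). The estimates of the pair differed by -0.87 (exact permutation p = 0.086, 0.23 after adjustment over the 8 pairs). Over the 8 arrays the pair had a Pearson r of -0.32 (exact permutation p = 0.44, adjusted p = 0.72) and a Spearman rho of -0.50 (exact permutation p = 0.22, adjusted p = 0.59). The files do not say which part of the transcript each probe set reads.

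Agreement between probe sets of 1 gene over the 8 arrays varied from pair to pair. For the 11 pairs within Notch1, Notch2, Notch3, Jag1, Heyl, Lfng and Nrarp, the highest r was that of Notch2 at 0.64 (Spearman rho 0.67, exact permutation p = 0.098 and 0.083, adjusted p = 0.72 and 0.42). Without the 2 arrays farthest from the median of the brighter probe set it was 0.081, so it rested on those arrays. The pair of Notch1 had an r of 0.36 and a rho of 0.33 (exact permutation p = 0.38 and 0.43, adjusted p = 0.72 and 0.78). The pair of Notch3 had an r of -0.08 and a rho of -0.05 (exact permutation p = 0.85 and 0.93, adjusted p = 0.94 and 0.98). For Heyl 1419302_at and the dim 1419303_at the r was 0.45 and the rho 0.71, the highest of the 11 (exact permutation p = 0.27 and 0.058, adjusted p = 0.72 and 0.42), and r was 0.74 without the 2 farthest arrays. Jag1 1434070_at and 1421105_at had an r of 0.58 and a rho of 0.62 (exact permutation p = 0.14 and 0.11, adjusted p = 0.72 and 0.42), with r at 0.23 without those 2 arrays. None of the 11 passed after adjustment. These arrays share litters in pairs and are not fully independent.

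The direction of the genotype difference was the same in all 4 litters for 3 of 17 probe sets (Notch3 1421965_s_at and Nrarp 1417986_at lower, Jag1 1421106_at higher), against 13.4% of all tested probe sets. Litter took a median of 44.7% of the variation over arrays among the 17 and 52.1% over all tested probe sets. Genotype took a median of 4.93%, against 6.65% over all. The share of genotype was 66.7% for Nrarp 1417986_at, 47.5% for Notch3 1421965_s_at and 47.1% for Jag1 1421106_at, and 31.4% or less for the other 14 probe sets. These shares are descriptions of 8 arrays. With 4 litters and 2 genotypes, litter takes the larger share on average by chance alone, so its share cannot be weighed against that of genotype.

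**Figure D3:**
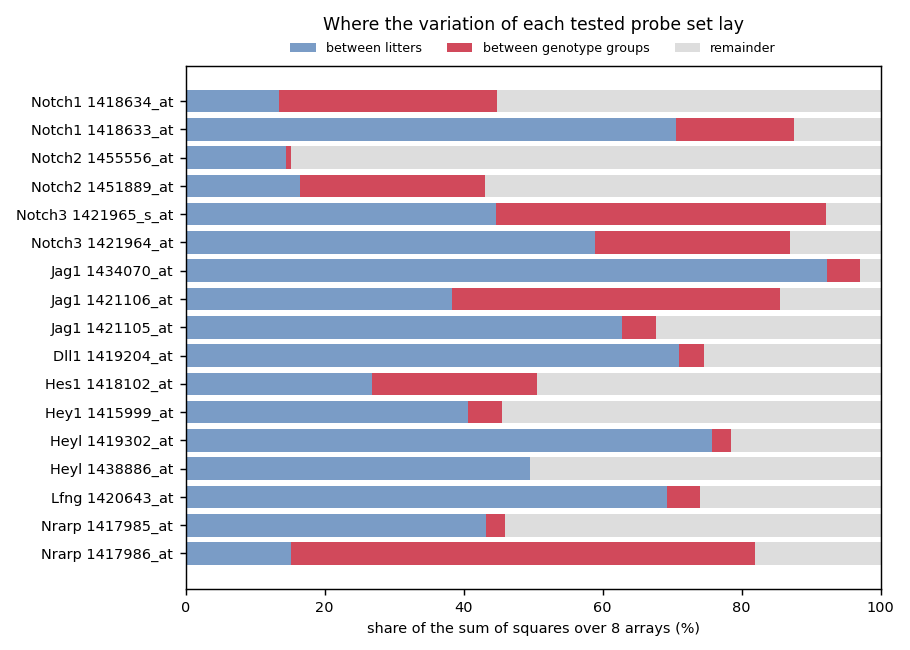
Share of the sum of squares of log2(signal + 32) over 8 arrays that lay between litters, between genotype groups and in the remainder, in percent, for the 17 tested probe sets. Litter took 92.4% for Jag1 1434070_at and genotype took 66.7% for Nrarp 1417986_at.

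The wider pathway was read from a list of 47 other Notch genes, of which 43 were on the array under a symbol of their own and 34 had a tested probe set (65 probe sets in all). None of the 65 passed the adjusted threshold in limma. None had an unadjusted p under 0.05 without the block, against 3.29% of all tested probe sets. With the block 1 had one, that of Poglut1, against 5.54% of all. By the brightest probe set of each gene, 18 were higher and 16 lower in transgenics, with a median log2 fold change of 0.02. All 65 had a 95% interval within a 2-fold change, as had 22226 of all 22518 tested probe sets. The smallest p values belonged to Poglut1, which adds glucose to Notch repeats (log2 fold change 0.17, 95% interval -0.01 to 0.36), Spen, a corepressor that works with RBPJ (log2 fold change -0.26, 95% interval -0.58 to 0.06), Neurl1a, a ubiquitin ligase of ligands (-0.39), and Dlk2, a ligand-like protein (-0.43). Poglut1 read 1496, 1151, 1224 and 1258 in controls and 1418, 1433, 1420 and 1508 in transgenics, higher in 3 of 4 litters. The Neurl1a and Dlk2 values came from their dimmer probe sets, and the brightest ones were at 0.20 and 0.15, of opposite sign.

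Rbpj, the DNA-binding partner of Notch, was at a log2 fold change of 0.05 on its brightest probe set (95% interval -0.16 to 0.26), with 0.12 and -0.03 on its other 2. Dll4, a ligand of endothelium, read near the filter and was at a log2 fold change of -0.25 (95% interval -0.73 to 0.24). Too dim to be tested were Notch4, Jag2, Dll3, Dner, Hes5, Hes7, Hey2, Mfng and Maml2.

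**Figure D4:**
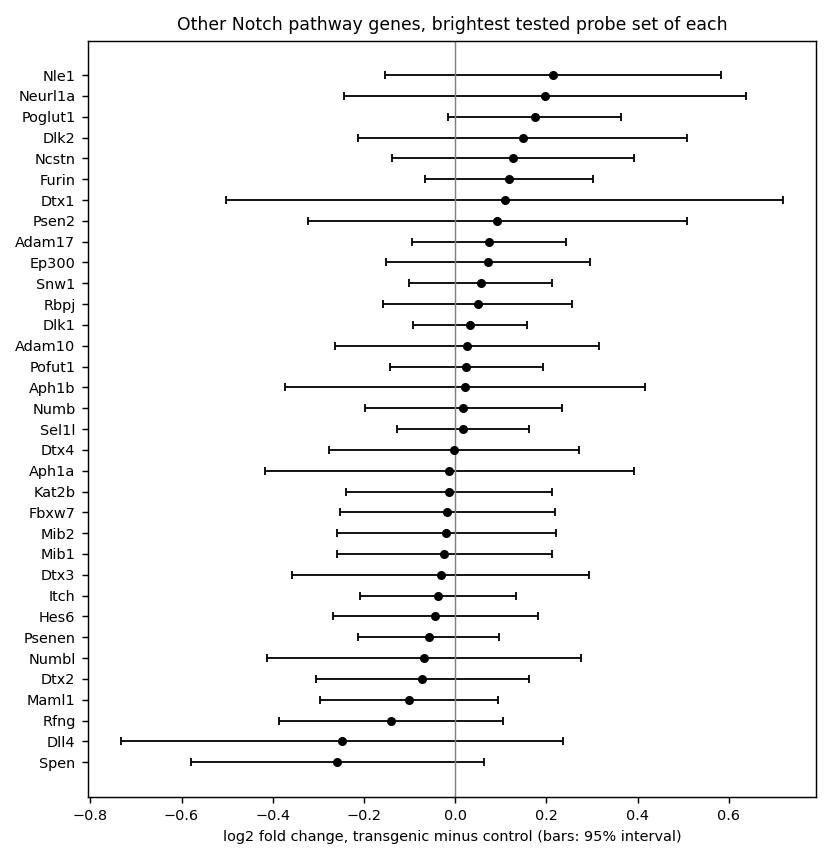
Log2 fold change, transgenic minus control, with 95% intervals for the brightest tested probe set of 34 other Notch pathway genes. Every interval includes 0, and the estimates range from -0.26 (Spen) to 0.21 (Nle1).

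Markers of other cells that use Notch were present on the same arrays. Of the 18 endothelial markers 16 were tested (all but Tie1 and Vwf), 12 were lower and 4 higher in transgenics, and the median log2 fold change was -0.15. Their summed signal ran from 5449 to 7639 in controls and from 5056 to 6433 in transgenics, lower in 3 of 4 litters. Cdh5, the cadherin of endothelial junctions, was at -0.60 (95% interval -0.94 to -0.27), lower in 4 of 4 litters, and Ecscr at -0.38. Mural cell markers (10 of 11 tested) had 8 higher and 2 lower, with Cspg4 at 0.09 and Abcc9 at 0.12, and summed to 12637 to 13810 in controls and 13029 to 14493 in transgenics. Litter by litter the sums, in which the brightest markers weigh most, and the Notch values did not always move alike. Both Nrarp 1417986_at and Notch3 1421965_s_at read below the paired control in 4 of 4 litters. The endothelial sum fell with them in 3 litters and rose in litter 3 (5897 in the control, 6093 in the transgenic). In litter 3 Eng (650 and 975), Cd34 (1445 and 1567), Tek, Egfl7, Esam and Sox17 rose. The other tested endothelial markers fell there, Cdh5 (261 and 159) and Kdr (265 and 188) among them. The mural sum, to which Acta2 and Cspg4 gave the most, fell with those Nrarp and Notch3 probe sets only in litter 1 (13810 and 13149) and rose in the other 3. The part of other cells in the Notch values was not tested, and in such bulk RNA fewer cells of a type and less RNA per cell cannot be told apart.

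**Figure D5:**
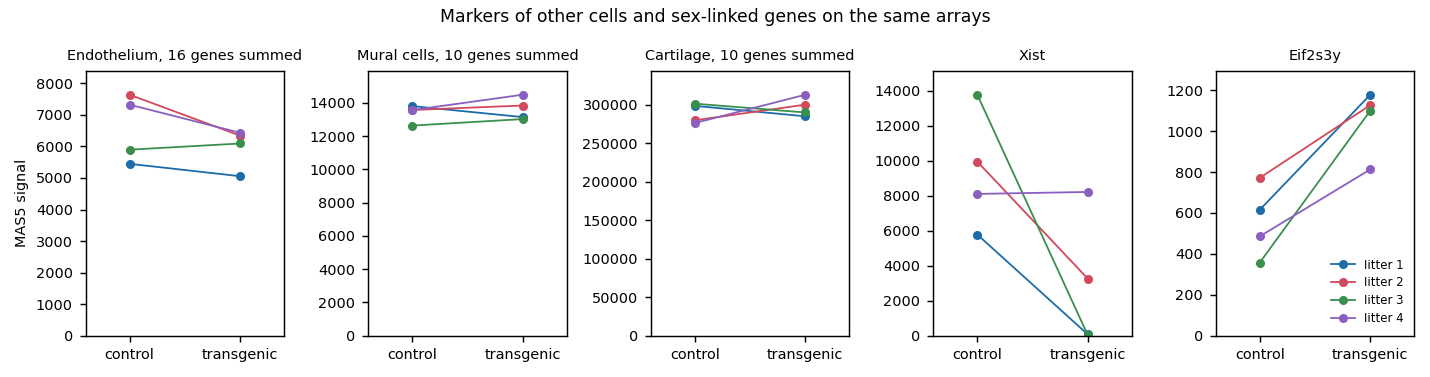
Summed MAS5 signal of the tested markers of endothelium, mural cells and cartilage, and signal of Xist and the Y-linked Eif2s3y, on each array, with lines joining the 2 pools of a litter. Xist was at 79.8 and 47.2 in the transgenic arrays of litters 1 and 3.

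Of the further lists, with log2 fold changes in brackets, all 3 tested erythroid genes were lower (Slc4a1 -0.31 and Alas2 -0.28), with sums of 6397 to 13726 in controls and 5349 to 10672 in transgenics. Skeletal muscle had 9 higher of 12 (Myf5 0.43, Ckm 0.37), perichondrium and fibroblasts 7 of 10 (Twist1 -0.23, Col3a1 0.05), cartilage 9 of 10 (Col11a1 0.06, Matn3 0.06) and macrophages 3 of 6 (Cd14 0.18, C1qb 0.36). Immediate early genes, which tissue digestion can induce, had 12 higher of 14 (Klf4 0.29, Dusp1 0.17). Of the sex-linked list, Eif2s3y was at 0.92 and Uty at 0.86 on the log2 scale. No member of these lists passed the adjusted threshold in limma.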

How the data were processed

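Total RNA of 8 chondrocyte pools was read on one-colour Affymetrix arrays, 1 array per pool. The authors deposited 1 linear intensity per probe set and array, and the submitters' processing notes name MAS5. Which version was run is not stated there, and detection calls were not used here. By the values, the mean of each array without 2% at either end is 500.0. MAS5 subtracts mismatch signal, so dim probe sets are noisy.

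After removal of 64 control probe sets, values were turned to log2(signal + 32), 32 being the median of the arrays' 25th percentiles, with no further normalization. Probe sets with a mean signal above the median were fitted in limma 3.58.1 under R 4.3.3 (lmFit, then eBayes with trend), transgenic minus control, with Benjamini-Hochberg adjustment over all 22518. Single values were tested two-sided by exact permutation over 70 assignments. The fit was tested on simulated data. The number of arrays limits the precision. Figures were drawn with matplotlib 3.10.9.

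Names came from GEO's platform annotation, looked up by gene identifier in a RefSeq table of GRCm38.p6. Of the probe sets, 34945 had 1 symbol, 932 several and 9160 none here. Promoter sequences are RefSeq's.

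Samples share litters by label, and the control and transgenic arrays of the same replicate number were taken as a pair. Deviations from the group means correlated by 0.28, 0.17, 0.04 and 0.14 within litters 1 to 4, and by -0.05 on average between litters. Deviations sum to 0 within a group, so the value between litters follows largely from those within and is no separate check of the pairing. The chosen fit had no block, and the blocked fit was an alternative. Others were the constant, the filter, quantile normalization, the trend, the kind of probe set, the Xist level as a covariate, and single arrays or litters left out. Members and lists were chosen with earlier results of these data known. Named were all members, the 4 other pathway genes with the smallest p (as none had an unadjusted p under 0.05), the 2 smallest p of each marker list, and the 2 genes most like each member. Rbpj, Dll4 and the genes at either end of the pathway plot were named after their values were seen. The comparison of estimates between probe sets of a gene and the permutation within litters were also chosen after seeing the data.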

Additional observations from a re-analysis of the deposited data

Results flagged for a closer look

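Heyl 1438886_at had 1 array far from the rest of its group. The transgenic array of litter 2 read 137, while the other 3 transgenic arrays lay between 244 and 266. The neighbouring Heyl probe set 1419302_at read 257 on that array, within the range of its group. It was the only array of 38 groups looked at (19 probe sets in 2 genotypes) whose gap to its nearest neighbour, divided by the range of its group, was above Dixon's 95% critical value, and chance gives about 1 in 20 groups.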

How the results depend on the processing

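Over 25 alternatives, 0 Notch probe sets and 0 other pathway probe sets passed the adjusted threshold in limma, as in the chosen fit. The count with an unadjusted p under 0.05 was 2 in the chosen fit. It was 3 with the litter as a replicate block, with quantile normalization and with the Xist level as a covariate. Under that covariate the 3 were Nrarp 1417986_at, lower in transgenics, and Notch2 1451889_at and Notch3 1421964_at, both higher. The count was 1 with the filter at the 75th percentile, 1 without the probe sets ending in _x_at or _s_at, and from 1 to 4 when arrays or litters were left out. It was 1 without control replicate 2, control replicate 4 or transgenic replicate 3, and 4 without litter 3 in the blocked fit. The block changed no call. Of 411 estimates under alternatives, 379 kept their sign, but many of the 411 could not turn. The block, the filters, the omitted trend and the omitted kinds of probe set left each estimate as it was. Leaving out a litter gave the same estimate with and without the block. For 9 of 17 probe sets, those of Notch1, Notch3, Hes1 and Dll1, Notch2 1451889_at, Jag1 1421106_at and Nrarp 1417986_at, no alternative turned the sign.

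The sign turned for the other 8, and for the untested dim Lfng probe set. When arrays or litters were left out, log2 fold changes ran from -0.074 to 0.10 for Notch2 1455556_at, -0.0010 to 0.14 for Jag1 1434070_at, -0.13 to 0.031 for Jag1 1421105_at, -0.24 to 0.095 for Hey1, -0.10 to 0.061 for Heyl 1419302_at, -0.15 to 0.18 for Heyl 1438886_at, -0.039 to 0.13 for Lfng 1420643_at and -0.10 to 0.23 for Nrarp 1417985_at. With the Xist level as a covariate Hey1 was at 0.023 and Heyl 1419302_at at 0.030. With quantile normalization Heyl 1438886_at was at 1.7e-04 and the dim Lfng probe set at 0.0031. The cause was not tested. Detection calls were not used here, so signal near background limits what the dim probe sets can show.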

Other observations

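The genes whose log2 signal ran most like that of each Notch gene over the 8 arrays, by Pearson r of the brightest tested probe sets against those of other genes, differed from member to member. For Notch1 they were Fbxo34 (0.988) and Wdr25 (0.943), for Notch2 Golph3l (0.945) and Ighmbp2 (0.938), and for Notch3 Pigc (0.97) and Pomt1 (0.965). Jag1 ran most like Slc9a3r2 (0.97) and Lepr (0.965) and Dll1 like Tsc22d2 (0.963) and Opa3 (0.961). Among the targets, Hes1 went with Pafah2 (0.93) and Cdk11b (0.917), Hey1 with Traf5 (0.945) and Abhd4 (0.932), Heyl with Afap1l2 (0.992) and Kcp (0.986) and Nrarp with 4833439L19Rik (0.965) and Magee1 (0.961). Lfng went with Vps29 (0.952) and Phf19 (0.94). No gene appeared for more than 1 member and no Notch pathway gene was among them. The arrays share litters in pairs, and these values are a description chosen as the highest of many.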
